A study of Arabidopsis thaliana with 15 samples.

Results

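Transcripts of 10 Arabidopsis genes for HSP70 and HSP110 chaperones were followed through high light and recovery, out of 21593 genes listed. The members were taken by gene identifier. They comprise 6 genes of cytosolic HSP70 (HSC70-1, HSP70-2, HSC70-3, HSP70-4, HSP70b and ERD2), the HSP110-type pair HSP70-14 and HSP70-15, and the plastid pair cpHsc70-1 and cpHsc70-2. Of these, 9 passed the filter on low values, and ERD2 did not. RNA came from leaf number 7 of Col-0 wild-type plants, which had grown for 6 to 7 weeks in an 8 h photoperiod. Growth light (GL) was 100 and high light (HL) 1000 μmol of photons per square metre and second. GL plants were sampled before any HL, and HL15 and HL60 plants after 15 and 60 min of it. R15 and R60 plants had 60 min of HL and were then returned to growth light, where they recovered (R) for another 15 and 60 min. Each condition had 3 biological replicates, 15 libraries in all, and all plants shared the Col-0 background.

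HSP70 proteins bind short hydrophobic stretches of other proteins and release them in a cycle driven by ATP. J-domain proteins deliver clients and stimulate ATP hydrolysis, and nucleotide exchange factors replace the ADP and reset the cycle. HSP110-type proteins are distant HSP70 relatives that act as exchange factors for HSP70 and hold unfolded proteins. In plants, cytosolic members include abundant genes that are expressed in unstressed leaves and genes that are best known for induction by heat, while plastid HSC70 proteins work in the stroma in folding and protein import. Heat shock transcription factors bind repeats of the unit GAA in alternating orientation, called heat shock elements.

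Values are normalized counts, that is, counts per gene estimated by the authors and scaled per library. They summed to 16003876 to 20619828 per library, and the lowest totals were those of R60. The estimated reads were 14403178 to 28102722 per library. HL15 replicates 2 and 3 were much closer to each other than any other pair of replicates, with a chi-square per degree of freedom of 1.57, against 4.14 to 92.5 in the other 14 pairs and a limit of 1.02 from sampling alone. That limit is for whole reads, while these are estimated counts, so a value of 1.57 does not show a difference beyond sampling noise. The pair was counted as separate samples, as labelled. Still, 2 libraries of 1 RNA sample could differ by as much, which was not tested. HL15 may therefore hold fewer than 3 independent samples. With this pair averaged to 1 sample, 5 members were again called at HL15 against GL. HL60 replicate 1 stood apart from its group, with a chi-square per degree of freedom of 74.7 against replicate 2 and 92.5 against replicate 3. HL15 replicate 1 was the highest HL15 library for 8 of the 9 members tested, and HL60 replicate 2 was the highest HL60 library for 8 of 9. The 5 leaf markers (RBCS1A, RCA, CA1, CAB1 and PSAD1) were high in all libraries, while the seed marker CRA1 stayed at or under 3 normalized counts and the flower marker AG lay between 4.97 and 37.1. The root marker PYK10 was 0 in all GL libraries and at most 1.98 in HL. It was 1.00 to 7.52 in R15 and 7.19 to 10.7 in R60. Summed levels of 2 epidermis markers overlapped GL in every other condition. The summed level of the leaf markers was 649121 to 844979 normalized counts in R60, against 1215784 to 1234687 in GL. RBCS1A overlapped between R60 (202681 to 281772) and GL (276228 to 286026), while RCA, CA1, CAB1 and PSAD1 were lower in all R60 libraries. The largest falls were those of RCA (mean 346125 in GL and 142803 in R60) and CAB1 (406602 and 227869). The summed level of 3 guard cell markers was 420 to 605 in HL15, against 743 to 929 in GL. For 2 phloem markers the sum was 1323 to 1577 in HL60 and 1399 to 1594 in R15, against 2285 to 2685 in GL. This sum was mostly SUC2, with means of 2347 in GL, 1207 in HL60 and 1320 in R15. The other phloem marker, APL, did not fall, with means of 154 in GL, 228 in HL60 and 192 in R15 and overlapping libraries. The part of these shifts in the members' changes was not tested.

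The members lie on chromosomes 1, 3, 4 and 5 of the TAIR10.1 annotation of RefSeq, and some are neighbours. HSP70-2 (AT5G02490, chr5:550035-552827, minus strand) lies next to HSC70-1 (AT5G02500, chr5:553745-556623, minus strand). Their coding sequences were 87.2% identical. The HSP110-type genes HSP70-15 (AT1G79920, chr1:30059302-30062824, minus strand) and HSP70-14 (AT1G79930, chr1:30063448-30067589, minus strand) were 95.9% identical over the aligned coding bases. Of the 31-base words in their transcripts, 24.9% of those of HSP70-15 and 20.6% of those of HSP70-14 occurred in the other gene, so that reads can be split uncertainly between this pair. For all other members the words shared with any other member were 4.33% or less. HSC70-3 (AT3G09440, chr3:2902355-2905947, minus strand) and HSP70-4 (AT3G12580, chr3:3991117-3993886, minus strand) are on chromosome 3. HSP70b (AT1G16030, chr1:5501966-5504535, minus strand) has 1 exon, and ERD2 is AT1G56410 (chr1:21117147-21119241, plus strand). The plastid genes cpHsc70-1 (AT4G24280, chr4:12589810-12593800, plus strand) and cpHsc70-2 (AT5G49910, chr5:20303334-20306469, plus strand) have 8 exons each and were 85.2% identical in coding sequence.

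Heat shock element patterns were searched because several members moved together. A match to GAANNTTCNNGAA or TTCNNGAANNTTC, which hold 3 alternating units and are searched on both strands, was found in none of the 10 members within the 250 bases before the annotated gene start. It was found there in 0.423% of 20337 genes. A window of 500 bases before the coding start was then chosen because the shorter window held no match. It held the 3-unit pattern in 7 of 10 members and in 280 of the 20337 genes (1.38%). The members are related in sequence, and the matched letters of HSC70-1 are also found in HSC70-3, so these 7 are not independent of one another. All of these members' matches lie within an annotated exon of the gene itself, before the coding start. Shorter patterns of 2 units (GAANNTTC or TTCNNGAA, which also occur inside every 3-unit match) were present in 9 of 10 members and in 34.8% of genes. All 3-unit sites and the 2-unit site of HSP70b are shown with 8 flanking bases on each side. The bases run 5′ to 3′ on the strand of the gene, and capitals mark the matched pattern. The 2-unit site of ERD2 and a 2-unit site of HSP70-15 outside its 3-unit match are not printed. The printed sites let the pattern of the strongly induced HSP70-4 and HSP70b be set beside that of other members.
HSC70-1, 3 units, chr5:556554-556582, minus strand: caaccatcGAACATTCTCGAAacatttta
HSP70-2, 3 units, chr5:552686-552714, minus strand: taattacaGAACATTCTGGAAactcaagt
HSC70-3, 3 units, chr3:2905894-2905922, minus strand: atcgaaccGAACATTCTCGAAccttttta
HSC70-3, 3 units, chr3:2905765-2905793, minus strand: gagccatcGAACCTTCTCGAAactcgagt
HSP70-4, 3 units, chr3:3993846-3993874, minus strand: ttactcgtGAACGTTCTCGAAagctcttt
HSP70-15, 3 units, chr1:30062648-30062676, minus strand: tttcggtgGAAGCTTCCAGAAcgcgaacc
cpHsc70-1, 3 units, chr4:12589906-12589934, plus strand: atcttctcTTCTCGAAACTTCaagtgggg
cpHsc70-2, 3 units, chr5:20303341-20303369, plus strand: caaccattTTCTAGAACCTTCcacttctt
HSP70b, 2 units, chr1:5504461-5504484, minus strand: gaccttttTTCTCGAAatgtctcg
HSC70-3 held 2 separate 3-unit matches, and HSP70b and ERD2 held a 2-unit match only. HSP70-14 held neither pattern in this window. A match is a description of letters and not of a site in use.

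**Figure D1:**
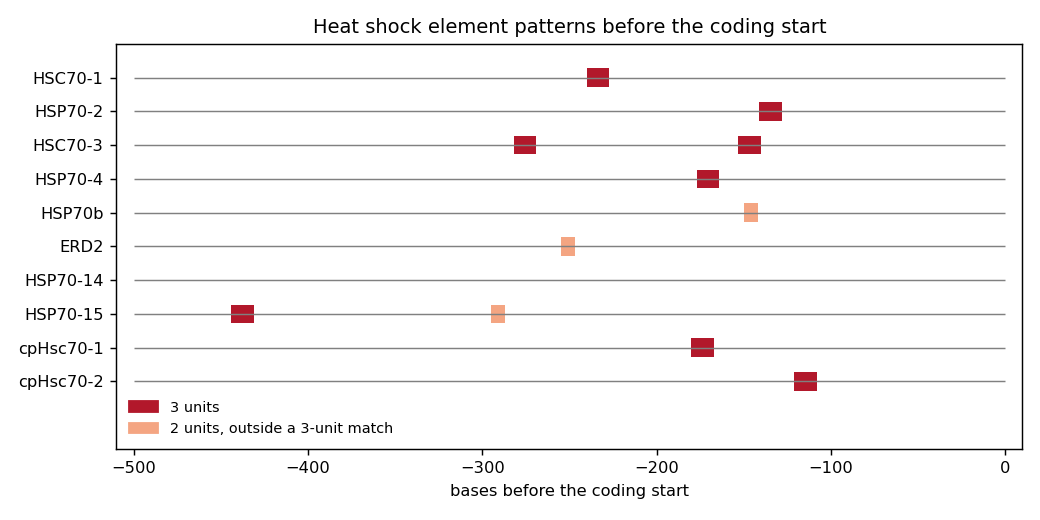
Matches to heat shock element patterns in the 500 bases before the coding start of each member, with distance in bases on the x axis and 1 line per gene. Dark boxes are 3-unit matches and light boxes are 2-unit matches outside them. Of the 10 members, 7 hold a dark box, and HSP70-14 holds none of either kind.

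After 15 min of HL, 5 of the 9 members tested rose and none fell, where a call needed a limma adjusted p under 0.05 and a change of at least 2-fold. Over all 20512 genes tested, 4.79% were called higher and 4.66% lower. The members called were HSP70b, HSP70-4, HSC70-3, HSP70-2 and HSP70-15. The median log2 fold change was 1.49 over the 9 members and -0.03 over all genes. In a bulk leaf sample, fewer cells of a type and less RNA per cell cannot be told apart, here and below. After 60 min of HL, 5 members again were called higher and none lower, against 7.76% and 7.8% of all genes, with a median of 1.19 over the members and 0.00 over all genes. HSP70-14 then was among them and HSC70-3 was not.

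After 15 min of recovery, HSP70-4 was still called higher than in GL and HSC70-3 was called lower, which gave 1 member in each direction, against 10.9% of genes called higher and 8.94% called lower. After 60 min of recovery none of the members was called higher than in GL and 5 were called lower (HSP70-4, HSC70-3, HSC70-1, HSP70-2 and HSP70-15), against 10.7% and 8.53% of all genes. The members' median log2 fold change at R60 was -1.03, against -0.02 over all genes. GL was sampled once, before HL, so that the treatment and the time of day cannot be told apart in comparisons with GL. Without R60 replicate 1 the count at R60 was 3, because the changes of HSP70-2 and HSP70-15 were then -0.94 and -0.90 and so under the 2-fold minimum. The summed level of the 5 leaf markers was also lower in R60, as given above, and its part in these changes was not tested.

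**Figure D2:**
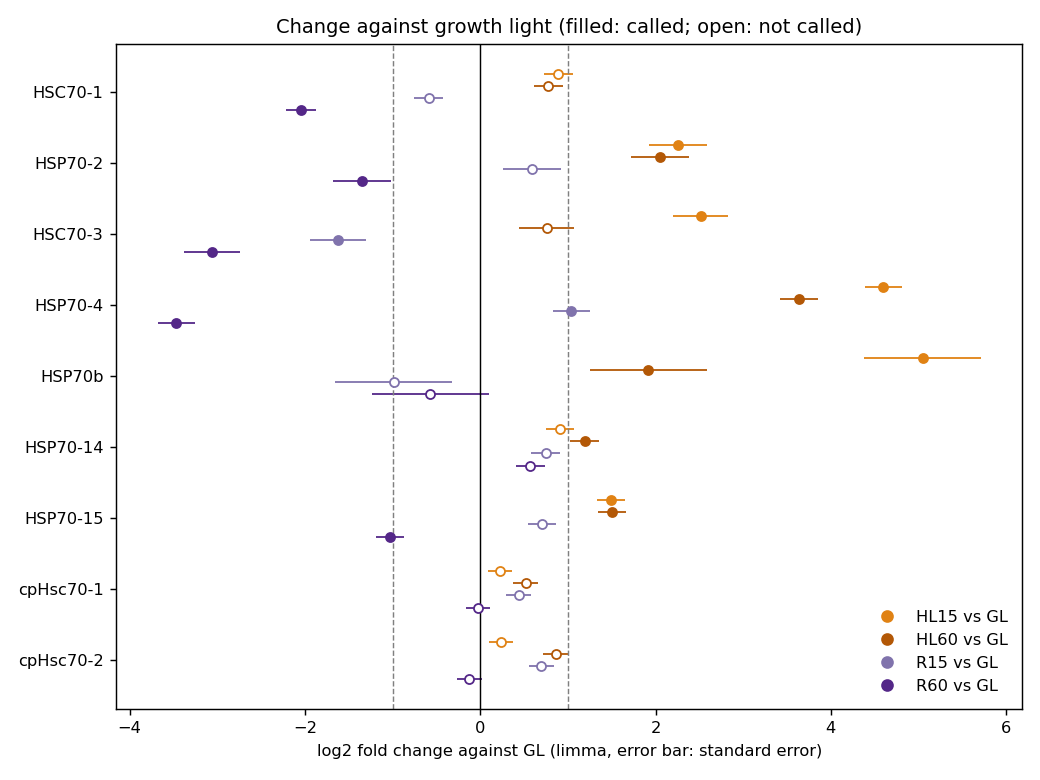
Log2 fold change of each of the 9 members tested against GL (x axis) at HL15, HL60, R15 and R60, with the standard error of the fit as bars. Filled points were called and open points were not, dashed lines mark a 2-fold change, and the points of R60 lie at -3.47 for HSP70-4 and at -3.06 for HSC70-3.

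Successive steps were tested in the same fit. From HL15 to HL60, HSP70b and HSC70-3 fell and no member rose, against 6.22% of genes called lower and 6.4% called higher. R15 against HL60 gave 5 members lower and none higher, against 3.73% and 5.97% of genes, with a median log2 fold change of -1.37 over the members and 0.01 over all genes. R60 against R15 gave 5 members lower and none higher, against 8.05% and 7.11% of genes, with a median of -1.44 over the members. Across the whole hour of recovery, R60 against HL60, 6 members fell and none rose, against 8.07% and 9.95% of genes, and the median was -2.52 over the members and 0.04 over all genes. The 3 members not called there were HSP70-14 and the plastid pair.

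HSP70-4 (named HSP70 in the files), a cytosolic HSP70 known for induction by heat, had the widest range of all members. It had 5912, 4961 and 4923 normalized counts in GL, 150429.6, 116263 and 117444 in HL15, 54441, 95023 and 53676 in HL60, 13518, 9677 and 9546 in R15, and 478, 395 and 559 in R60. No 2 of the 5 conditions overlapped, and their order was R60, GL, R15, HL60 and HL15 from low to high. The log2 fold change against GL was 4.60 ± 0.21 (SE) at HL15 (limma adjusted p = 2.8e-08) and 3.64 at HL60 (limma adjusted p = 1.4e-08). It was 1.04 at R15 (limma adjusted p = 0.0011), close to the 2-fold minimum. It was under that minimum at 0.94 with upper quartile scaling, at 0.76 with quantile normalization, and without GL replicate 2 (1.00), GL replicate 3 (0.99) or R15 replicate 1 (0.87). At R60 the log2 fold change against GL was -3.47 (limma adjusted p = 2.3e-08), and the mean was 477 normalized counts in R60 and 5265 in GL. Within recovery the log2 fold change was -2.60 from HL60 to R15, where HSP70b was at -2.91. It was -4.51 from R15 to R60 and -7.11 over the full hour (limma adjusted p = 4.2e-11), the largest falls among the members tested in these comparisons. The GL mean was thus 11.0 times the R60 mean, and the HL60 mean was 141.8 times the R60 mean. The step from HL15 to HL60 was -0.96 (limma adjusted p = 0.003), not called. It passed 2-fold and was called without HL15 replicate 2 (-1.03), HL15 replicate 3 (-1.02) or HL60 replicate 2 (-1.23), and with HL15 replicates 2 and 3 averaged (-1.02).

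HSP70b, another cytosolic HSP70 known for induction by heat, gave the largest change against GL when all libraries were used. It had 149, 119 and 126 normalized counts in GL, 16704, 2293 and 2153 in HL15, 203, 1302 and 462 in HL60, 67.2, 74.2 and 55.9 in R15, and 93.7, 79.8 and 90.0 in R60. HL15 replicate 1 held 16704 normalized counts and exceeded the other two HL15 libraries by a wide margin, but all 3 HL15 libraries lay above every library of the other conditions. The log2 fold change at HL15 was 5.05 ± 0.67 (SE, limma adjusted p = 0.00011), and it was 4.08 without HL15 replicate 1 (limma adjusted p = 8.4e-05). Without that library HSP70-4 had the larger change, at 4.48. At HL60 it was 1.92 (limma adjusted p = 0.034), with the 3 HL60 libraries spread over 203 to 1302 normalized counts. This call was lost when only HL60 and GL were fitted, without a variance trend, and without any GL library, HL60 replicate 2 or HL60 replicate 3 (limma adjusted p between 0.057 and 0.17). Without HL60 replicate 2 the log2 fold change was 1.22, and without HL60 replicate 1 it was 2.56. The fall from HL15 to HL60 was -3.13 (limma adjusted p = 0.0023), and was not called with only those conditions in the fit (limma adjusted p = 0.066). It was -2.16 without HL15 replicate 1, -2.49 without HL60 replicate 1 and -3.82 without HL60 replicate 2. From HL60 to R15 the log2 fold change was -2.91 (limma adjusted p = 0.0055), and it was -3.55 without HL60 replicate 1 and -2.21 without HL60 replicate 2. All R15 and R60 libraries lay below all GL libraries, yet the log2 fold changes against GL of -0.99 at R15 and -0.57 at R60 missed the threshold (limma adjusted p = 0.25 and 0.53).

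HSC70-3, an abundant cytosolic HSP70, showed a short pulse. Its values were 12381, 10876 and 10555 normalized counts in GL, 74042, 59390 and 60139 in HL15, 15129, 23511 and 19239 in HL60, 3539, 3456 and 3981 in R15, and 703, 1351 and 2568 in R60. The groups did not overlap in any pair of conditions, although R60 was spread widely. The log2 fold change was 2.51 ± 0.32 (SE) at HL15 (limma adjusted p = 7.3e-05). At HL60 it was 0.76 (limma adjusted p = 0.075), which missed the threshold, and 0.92 without HL60 replicate 1 (limma adjusted p = 0.042), still under 2-fold. The step from HL15 to HL60 was -1.76 (limma adjusted p = 0.0007). In recovery it fell below GL, with log2 fold changes of -1.62 at R15 (limma adjusted p = 0.00077) and -3.06 at R60 (limma adjusted p = 2.9e-06). The step from R15 to R60 was -1.44 (limma adjusted p = 0.0024), and without R60 replicate 1 it was -0.97 and under the 2-fold minimum.

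HSC70-1, the most abundant cytosolic HSP70 of unstressed leaves, had 43697, 40891 and 41313 normalized counts in GL, 85709, 73671 and 74523 in HL15, and 70828, 76871 and 68284 in HL60. In recovery it had 27632, 27303 and 28780.3 in R15 and 7595, 10195 and 13486 in R60. All HL libraries lay above GL and all R libraries below it, while HL15 and HL60 overlapped. The rise stayed under the 2-fold minimum, with log2 fold changes of 0.89 ± 0.17 (SE) at HL15 (limma adjusted p = 0.0018) and 0.78 at HL60 (limma adjusted p = 0.0021). It was therefore not called in HL, except at HL60 under quantile normalization, where it was 1.00 (limma adjusted p = 0.00037). In recovery the log2 fold change against GL was -0.59 at R15 (limma adjusted p = 0.01), also under 2-fold, and -2.05 at R60 (limma adjusted p = 3.3e-07), which was called. The GL mean was 4.03 times the R60 mean.

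HSP70-2, the neighbour and close relative of HSC70-1, was expressed at a far lower level. It had 112, 105 and 129 normalized counts in GL, 526, 599.8 and 535 in HL15, 579.9, 494 and 379.9 in HL60, 164, 209 and 152 in R15, and 25.0, 37.5 and 93.3 in R60. HL15 and HL60 overlapped, and both lay above all other conditions. The log2 fold change was 2.26 ± 0.33 (SE) at HL15 (limma adjusted p = 0.00026) and 2.05 at HL60 (limma adjusted p = 0.00022), and both were called. At R15 it was 0.59 (limma adjusted p = 0.16) although no R15 library reached down to GL. At R60 it was -1.35 (limma adjusted p = 0.0043), with R60 replicate 3 closest to GL. The step from HL60 to R15 was -1.46 (limma adjusted p = 0.0052) and that from R15 to R60 was -1.94 (limma adjusted p = 0.00035).

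ERD2, a cytosolic HSP70 gene first described as responsive to dehydration, was near 0 in these leaves. The highest of its 15 values was 1.09 normalized counts, in HL60, and it was 0 in every R15 library. It did not reach the minimum sum of 10 normalized counts over all libraries and was not tested.

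**Figure D3:**
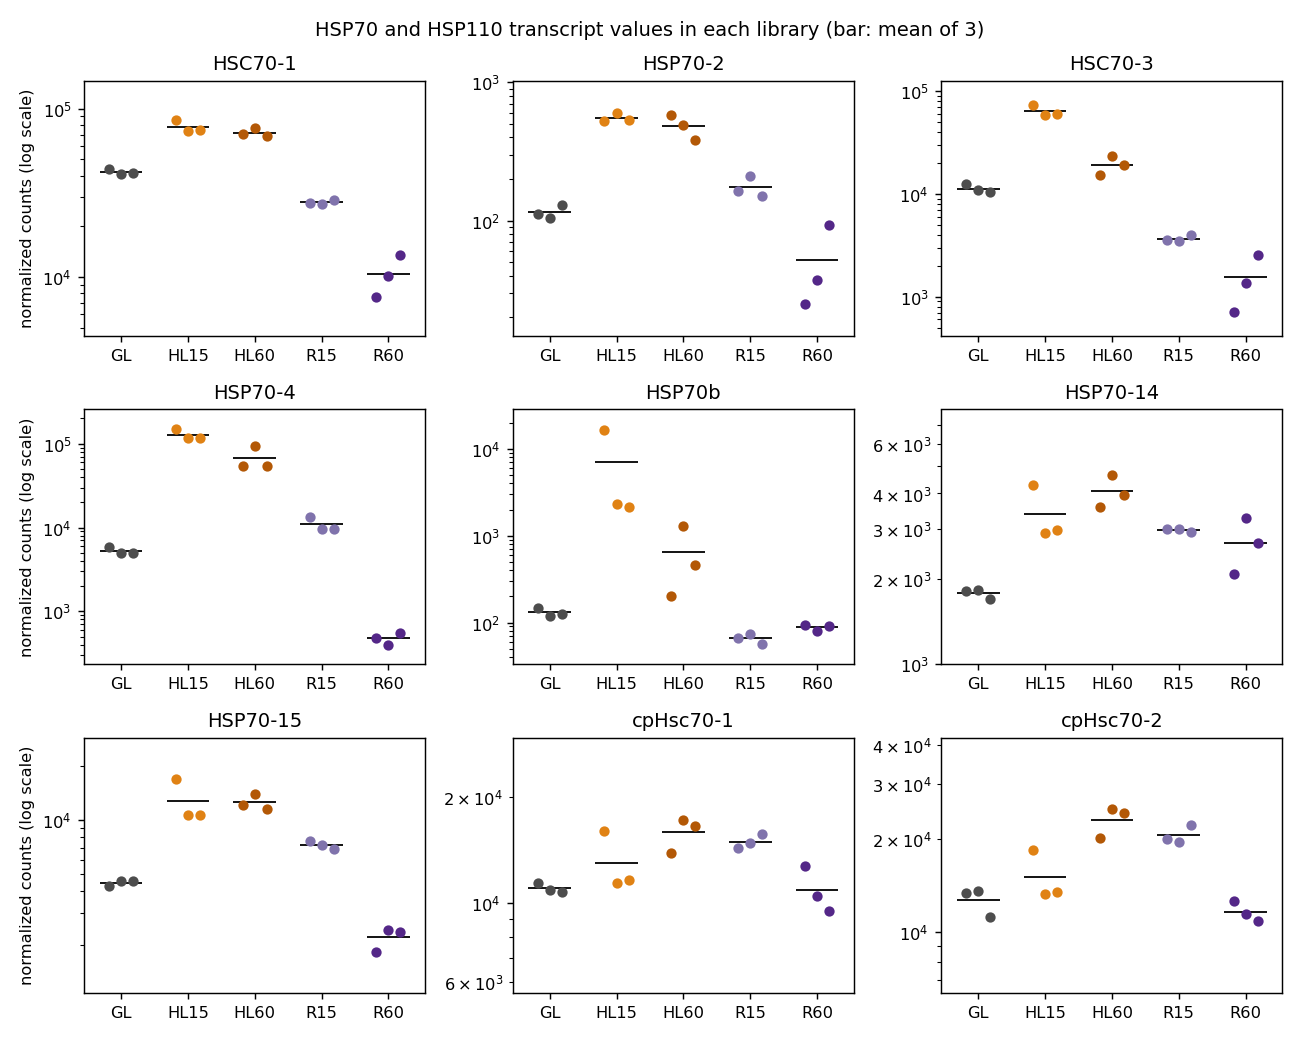
Normalized counts of the 9 members tested in each library, on log axes, 1 panel per gene, with conditions in the order of the experiment and the mean of 3 libraries as a bar. HSP70-4 spans 395 to 150429.6 normalized counts, while cpHsc70-1 spans 9480.2 to 17234.

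The HSP110-type pair differed in recovery. HSP70-15 had 4270.4, 4539.5 and 4525 normalized counts in GL, 17008, 10722 and 10704 in HL15, 12161, 14044 and 11564 in HL60, 7644, 7218 and 6875 in R15, and 1822, 2404 and 2367 in R60. HL15 and HL60 overlapped, R15 lay between them and GL, and R60 lay below GL. Relative to GL the log2 fold change was 1.49 ± 0.16 (SE) at HL15 (limma adjusted p = 1.6e-05) and 1.50 at HL60 (limma adjusted p = 4.8e-06), both called. It was 0.70 at R15 (limma adjusted p = 0.0023), not called, and -1.03 at R60 (limma adjusted p = 0.00012), called. The step from R15 to R60 was -1.73 (limma adjusted p = 1.7e-06).

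HSP70-14 (named HSP91 in the files) had 1807, 1819 and 1688 normalized counts in GL, 4272, 2897 and 2972 in HL15, and 3582, 4664 and 3949 in HL60. In recovery it had 3004, 2983 and 2923 in R15 and 2079, 3287 and 2672 in R60. All treated libraries lay above all GL libraries, and HL15, HL60, R15 and R60 overlapped one another in most pairs. The log2 fold change was 0.91 ± 0.16 (SE) at HL15 (limma adjusted p = 0.0013), just under the 2-fold minimum, and 1.19 at HL60 (limma adjusted p = 5e-05), which was called. Without HL15 replicate 2 the change at HL15 was 1.01 (limma adjusted p = 0.0024) and was called. At R15 and R60 it was 0.75 and 0.57 (limma adjusted p = 0.0018 and 0.011), both under 2-fold. It was the single member tested with all R60 libraries above all GL libraries.

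The ratio of HSP70-14 to HSP70-15 within each library does not depend on library scaling. Its log2 was 0.19, 0.45 and 0.17 in R60, against -1.24, -1.32 and -1.42 in GL, a difference of 1.60. In HL15 the log2 ratio averaged -1.91 ± 0.07, against -1.33 ± 0.09 in GL (SD, n = 3 each), a difference of -0.58 without overlap. At R15 the difference of 0.04 lay within the spread. An exact two-sided permutation test of 3 against 3 libraries cannot give a p below 0.1, and it gave 0.1 at HL15, HL60 and R60 (0.15 after Benjamini-Hochberg adjustment over 16 such tests). Per kb of transcript, HSP70-14 averaged 873 ± 197 and HSP70-15 865 ± 128 normalized counts in R60, against 577 ± 23.6 and 1749 ± 59.5 in GL (SD, n = 3 each). These levels carry the uncertainty of reads shared by the pair.

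Neither plastid gene was called in any comparison. These stromal HSC70 proteins assist protein import, and Arabidopsis needs at least 1 of them. The values of cpHsc70-1 were 11365, 10883 and 10764 normalized counts in GL, 16015, 11398 and 11637 in HL15, 13819.8, 17234 and 16486 in HL60, 14329.9, 14759.6 and 15689.9 in R15, and 12726, 10459 and 9480.2 in R60. HL15, HL60 and R15 lay above GL, HL15 by a small margin, and R60 overlapped it. Against GL the log2 fold change was 0.22 ± 0.14 (SE) at HL15 and 0.52 at HL60 (limma adjusted p = 0.27 and 0.0096). During recovery it was 0.44 at R15 and -0.03 at R60 (limma adjusted p = 0.02 and 0.9), and none of these reached 2-fold.

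The other plastid gene, cpHsc70-2, had 13325, 13576 and 11148 normalized counts in GL, 18423, 13285 and 13434 in HL15, and 20031, 24836 and 24177 in HL60. It had 19913, 19557 and 22107 in R15 and 12621, 11395 and 10809 in R60. HL60 and R15 lay above GL and above HL15, while HL15 and R60 overlapped GL. Against GL the log2 fold change was 0.24 ± 0.14 (SE) at HL15 and 0.86 at HL60 (limma adjusted p = 0.25 and 0.00024). During recovery it was 0.70 at R15 and -0.13 at R60 (limma adjusted p = 0.00097 and 0.51). None was called, and the change from HL60 to R60 of -0.98 was just under 2-fold (limma adjusted p = 6.2e-05). It passed 2-fold without HL60 replicate 1 (-1.08) or R60 replicate 1 (-1.05). The log2 ratio of cpHsc70-2 to cpHsc70-1 averaged 0.54 ± 0.01 in HL60, against 0.20 ± 0.14 in GL (SD, n = 3 each), without overlap (exact permutation p = 0.1, the smallest possible).

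**Figure D4:**
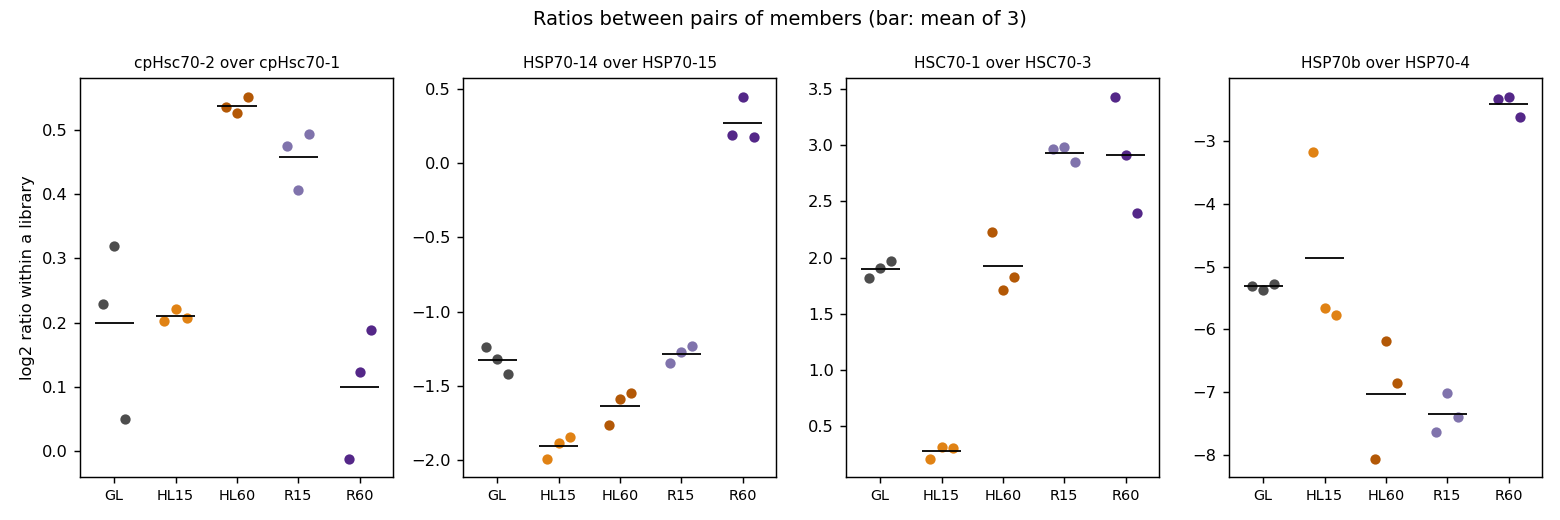
Log2 ratios of 4 pairs of members within each library (y axis) by condition, with each library as a point and the mean of 3 as a bar. The ratio of HSP70-14 to HSP70-15 lies above 0 in all 3 R60 libraries and at -1.24 or below in GL, and that of HSC70-1 to HSC70-3 is lowest in HL15.

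Composition of the cytosolic HSP70 transcripts was compared per kb of the longest transcript, with the 6 cytosolic members summed. Other HSP70 family genes are outside this sum, among them HSP70-8, with means of 183 normalized counts in GL and 8243 in HL15. The shares are thus of these 6 genes. The sum averaged 22111 ± 1112 normalized counts per kb in GL, 104320 ± 16126 in HL15, 61486 ± 12393 in HL60, 16484 ± 835 in R15 and 4803 ± 1480 in R60 (SD, n = 3 each). HL15 was thus 4.72 times GL and HL60 2.78 times GL, R15 was 0.746 times GL, and the GL sum was 4.60 times that of R60. None of the R libraries overlapped GL. In GL, HSC70-1 made up 74.7% of the sum (median of 3 libraries), HSC70-3 15.7% and HSP70-4 9.18%. HSC70-3 has 4 annotated transcripts, the longest of 3.222 kb, against 2.555 kb for HSC70-1 and 2.52 kb for HSP70-4. If shorter transcripts of HSC70-3 were the ones expressed, its share is understated, which was not tested. In HL15, HSP70-4 held 48.8%, ahead of HSC70-1 with 30.5%. At HL60 the medians were 39.8% for HSP70-4 and 49.2% for HSC70-1, while HSP70-4 reached up to 49.7% and HSC70-1 was as low as 39.7%. In R60, HSC70-1 made up 86.5% and HSP70-4 3.48%. The share of HSP70b was at most 5.29% in any library, in HL15 replicate 1, and lay between 0.133% and 1.06% in all libraries outside HL15. All 10 members together took 0.462% of all normalized counts in GL (median), 1.54% in HL15, 1.06% in HL60, 0.472% in R15 and 0.245% in R60.

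**Figure D5:**
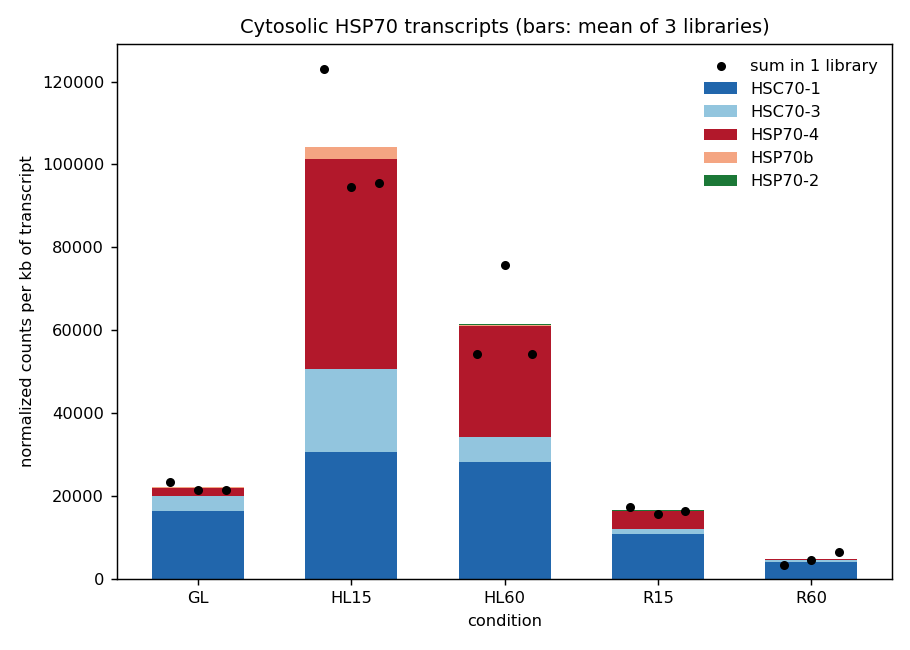
Normalized counts per kb of transcript of the cytosolic HSP70 members in each condition. Stacked bars give the mean of 3 libraries per gene and black points the sum in each library, which averages 104320 in HL15 and 4803 in R60. ERD2 is at about 0 and not drawn.

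HSC70-1 and HSC70-3, the abundant cytosolic pair in GL, moved by different amounts in HL15. The log2 of their ratio averaged 0.28 ± 0.06 in HL15, against 1.90 ± 0.08 in GL (SD, n = 3 each), a difference of -1.62 without overlap. At HL60 the difference of 0.02 lay within the spread. In R15 and R60 the ratio was higher than in GL by 1.03 and 1.01 on the log2 scale, again without overlap (exact permutation p = 0.1 each, the smallest possible). For the heat-inducible pair, the log2 ratio of HSP70b to HSP70-4 was -8.06, -6.19 and -6.86 in HL60, against -5.30, -5.37 and -5.27 in GL. Its difference from GL was -2.03 at R15 and 2.90 at R60, both without overlap (exact permutation p = 0.1 each), and that at R60 was the largest of the 16 ratio differences. At HL15 its difference from GL of 0.45 rested on HL15 replicate 1, and it was -0.40 without that library.

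Across the 15 libraries, members with similar courses were also correlated on the log2 scale, which is given as a description, since the libraries share the 5 conditions. Pearson's r was 0.97 between HSP70-4 and HSP70-15, 0.95 between HSC70-1 and HSC70-3 and 0.95 between the plastid pair. It was lowest between HSP70b and cpHsc70-2 (0.17) and between HSC70-3 and cpHsc70-1 (0.23). Of 12816 genes outside the members with a mean of 100 normalized counts or more, the gene most like HSC70-3 was HSP81-3, a cytosolic HSP90 (r = 0.99). The gene most like both HSP70-4 and HSP70-15 was AT3G62260 (r = 0.98 and 0.99). HSC70-1 was most like AFR (r = 0.98), HSP70-2 most like PFA-DSP4 (r = 0.96) and HSP70-14 most like AT2G04520 (r = 0.94). For the plastid genes, the gene most like cpHsc70-1 was CPN60A, a plastid chaperonin subunit (r = 0.95), and that for cpHsc70-2 was AT2G20360 (r = 0.95). HSP70b, the member with the largest change against GL over all libraries, was most like AT1G03070 (r = 0.98), BI1 (r = 0.97) and BIL4 (r = 0.97).

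Partner genes were counted from lists made by role. Of 8 other HSP70 family genes of the endoplasmic reticulum, mitochondria and cytosol, 2 rose at HL15 (HSP70-8 and mtHsc70-2) and 5 at HL60, where BIP1, BIP2 and HSP70-17 of the endoplasmic reticulum joined them, against 4.79% and 7.76% of all genes. At R15 3 of them were called higher (BIP1, BIP2 and HSP70-17), against 10.9% of all genes. At R60 mtHsc70-1 was called higher and HSP70-8 lower, against 10.7% and 8.53%. The median log2 fold change of this list was 0.35 at HL15 and 2.07 at HL60, whereas that of the 9 members was 1.49 and 1.19. The strongest changes were those of HSP70-8 (5.30 at HL15), a truncated family member, and mtHsc70-2, a mitochondrial HSP70 (3.60 at HL15). HSP70-8 had 14786, 4996 and 4949 normalized counts in HL15, against 201, 150.4 and 197 in GL. The values of mtHsc70-2 were 33502, 14761 and 14926 in HL15, against 1661, 1619.5 and 1529 in GL.

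J-domain partners, of which 10 of 12 listed were analysed here, gave 3 called higher at HL15 and the same 3 at HL60 (AT2G20560, ATJ2 and ATJ3), against 4.79% and 7.76% of all genes. Of these 10, 1 was called lower at R15 (AT1G10350), close to the 8.94% of all genes, and 2 at R60 (AT2G20560 and ATJ3), against 8.53%. When each library was left out, 3 to 4 of the list were called in either direction at HL15 and 2 to 3 at HL60. The medians of the list were 0.06, 0.28, -0.24 and -0.44 at HL15, HL60, R15 and R60. AT2G20560 had 27158, 17569.8 and 17561 normalized counts in HL15, against 282, 250.3 and 265 in GL. Its log2 fold change was 6.25 at HL15 and -3.89 at R60. ATJ2, a cytosolic J-domain protein, changed by 2.20 at HL15 and 1.35 at HL60.

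Of 16 exchange factors and adaptors, 4 rose at HL15 (BAG6, HOP3, HOP2 and the exchange factor Fes1A), against 4.79% of all genes. At HL60 BAG6, HOP3 and Fes1A were called higher and Fes1C lower, against 7.76% and 7.8%. At R15 HOP3 was called higher and BAG2, Fes1B and Fes1C lower, against 10.9% and 8.94% of all genes. At R60 Fes1A and HOP3 were called lower, against 8.53%. The 1 of 16 called higher at R15 is a smaller share than that of all genes, and the 2 of 16 called lower at R60 are close to theirs. The count of 4 called at R15 was 2 without GL replicate 2 and 1 without R15 replicate 1. The medians at HL15, HL60, R15 and R60 were -0.05, 0.31, -0.14 and -0.25. BAG6, a BAG-domain protein that binds calmodulin, had 74635, 40645 and 40984 normalized counts in HL15, against 203, 154 and 151 in GL, a log2 fold change of 8.21. HOP3, an adaptor that links HSP70 to HSP90, had 41368, 21493 and 21363 in HL15, against 434, 353 and 398 in GL, a log2 fold change of 6.08. HOP3 was at 1.16 at R15 and -1.59 at R60, and BAG6 at 0.19 and 0.91. In these lists, the genes other than AT2G20560, ATJ2, HSP70-8, mtHsc70-2, BAG6 and HOP3 were named after their values were seen.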

How the data were processed

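Leaf RNA of 15 libraries in 5 conditions was used. The authors ran Salmon (0.12) on cDNA sequences of TAIR, and the labels also name DESeq2 and TAIR10. The signal values they deposited are normalized counts per gene. Their form is that of an estimated count over a library size factor, with a length factor besides where a gene has several transcripts. They are not raw counts, so no count model was fitted. Genes whose 15 values summed to under 10 were left out (1081 of 21593). limma 3.58.1 (R 4.3.3) was run on log2(value + 1) with 1 coefficient for each condition, every library included, a variance trend and no block. On this scale the changes of low genes are understated. P-values were adjusted by Benjamini and Hochberg over the 20512 genes tested. Calls needed an adjusted p under 0.05 together with at least a 2-fold change. The procedure was tested on simulated data. Ratios of members were compared by exact permutation tests. Annotation and sequences are from RefSeq (TAIR10.1), joined by locus tag, which 21390 of the genes (99.1%) have. Genes named were the members, from each partner list the 2 with the largest change against GL among those called, and for each member the gene most like it over the libraries (3 for the member with the largest change). Members and lists were chosen with earlier results of these data known. Alternatives were pseudocounts of 0.5 and 5, other filters and scalings, a replicate block, fits of the conditions compared alone, no trend, no fold minimum and leaving out each library. Averaging HL15 replicates 2 and 3 was added after seeing the data.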

Additional observations from a re-analysis of the deposited data

Results flagged for a closer look

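For 4 members, calls against GL were made in opposite directions in high light and in late recovery. HSP70-2, HSC70-3, HSP70-4 and HSP70-15 were called higher than GL in HL15 or HL60 and lower than GL in R60. For R60 against HL60 the log2 fold changes were -3.39 for HSP70-2, -3.82 for HSC70-3, -7.11 for HSP70-4 and -2.52 for HSP70-15 (limma adjusted p = 1.9e-06, 4e-07, 4.2e-11 and 2.6e-08). These members were selected by calls on the same libraries. A fall from HL60 to R60 was largely set by that selection and is no separate support. Without R60 replicate 1 the falls of HSP70-2 and HSP70-15 below GL were under 2-fold, as given above. HSC70-1 also changed direction, with log2 fold changes against GL of 0.89 at HL15, 0.78 at HL60 and -2.05 at R60, but its rise was under 2-fold. HSP70b was at 5.05 at HL15 and at -0.57 at R60, where it was not called. The plastid pair also had estimates above GL in HL and below it at R60, none of them called. How many of all genes were called in opposite directions was not counted, so the 4 members cannot be set against such a share. Taken singly, 4.79% and 7.76% of all genes were called higher at HL15 and HL60, and 8.53% lower at R60.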

How the results depend on the processing

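Of 1800 refitted changes of single members, 1767 kept their direction and side of the threshold, and 57 of 72 changes did so under every alternative. Many of the 1800 refits left out a library of a condition outside the comparison. There the log2 fold change cannot move and only the adjusted p can, so the total of 1767 overstates the stability. The replicate block changed no member's call. Same-numbered libraries were not paired, since the correlation of their deviations was -0.083 to 0.137 and over 0.1 in 2 of 30 pairs. With the replicate block, 5, 5, 2 and 5 members were called at HL15, HL60, R15 and R60 against GL, the same counts as without it. Without a fold minimum, 8 members were called at HL60 and 7 at R15 against GL (5 and 2 with it), and 4 at HL60 against HL15 (2 with it), while over all genes the calls at HL15, HL60, R15 and R60 against GL were 5055, 7957, 9389 and 8917 (1939, 3191, 4061 and 3951 with it), and 7314, 4788, 8414 and 9093 for HL60 against HL15, R15 against HL60, R60 against R15 and R60 against HL60 (2588, 1990, 3110 and 3695 with it). At R15 against GL 1 member was called with upper quartile scaling and 1 with quantile normalization, and 1 to 2 when each library was left out. At R60 against GL 3 to 5 were called with a library left out, and at HL60 against HL15 1 with only these conditions fitted. Directions that reversed were all of changes not called: under quantile normalization cpHsc70-1 at HL15 against GL (-0.029), HSC70-1 (0.13) and HSP70-15 (-0.12) at HL60 against HL15, and HSP70-14 at R60 against R15 (0.10), and with HL15 replicates 2 and 3 averaged HSP70-15 at HL60 against HL15 (-0.11). Leaving out each library gave -0.11 to 0.23 for HSP70-15 at HL60 against HL15 and -0.14 to 0.069 for cpHsc70-1 at R60 against GL. For the log2 ratios it gave differences from GL of -0.064 to 0.070 for cpHsc70-2 over cpHsc70-1 at HL15, -0.0052 to 0.086 for HSP70-14 over HSP70-15 at R15, -0.13 to 0.13 for HSC70-1 over HSC70-3 at HL60 and -0.40 to 0.90 for HSP70b over HSP70-4 at HL15. The cause was not tested in any of these cases.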

Other observations

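Outside the members, 273 tested genes held a 3-unit heat shock element pattern in the 500 bases before the coding start. Of these, 21.6% were called higher than GL at HL15 and 2.56% lower, against 4.79% and 4.66% of all genes. At HL60 18.7% were called higher and 6.23% lower, against 7.76% and 7.8% of all genes. The shares were 11.4% and 10.3% at R15, against 10.9% and 8.94%. At R60 they were 11.0% and 15.0%, against 10.7% and 8.53%. The shares called higher at R15 and R60 were thus close to those of all genes. These shares are a description of letters and calls, and no test was made on them.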
